A study of Rattus norvegicus with 6 samples.

Results

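Skeletal muscle transcripts were examined in whole back skin of rats given vehicle or afatinib, a drug that binds covalently to receptor tyrosine kinases of the ErbB family, among them the EGF receptor. The genes were 9 of the 33692 features in the deposited count tables: 6 encode parts of the contractile filaments (Acta1, Myh4, Myl1, Tnnt3, Tnni2 and Tnnc2), and 3 encode enzymes that supply them with energy (Ckm, Aldoa and Eno3). They were taken by their Ensembl identifiers and were chosen by their measured CPM, because abundant muscle genes were lower together in 2 of the 3 afatinib libraries. The lower level in those libraries is therefore how the genes were picked, and it is given here as a description without a test. There were 2 groups with 3 libraries each, vehicle replicates 1 to 3 and afatinib replicates 1 to 3, all from frozen back skin. The dose, the length of treatment and the strain, sex and age of the rats are not given here by the labels, which also do not say whether each library came from a separate animal. Afatinib replicate 3 stood apart from the other 2 afatinib libraries in these genes, so the main comparisons are given with and without it.

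The deposited tables hold identifiers without symbols, and the 9 names used here are those paired with the identifiers when the genes were chosen. No other feature could be paired with a symbol. The lists of other muscle genes, of glycolytic enzymes and of markers for keratinocytes, hair follicle, fibroblasts, fat, smooth muscle, blood cells and vessels could therefore not be applied. Neither the labelled tissue nor the muscle label was checked against further markers.

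In striated muscle, thick filaments of myosin pull on thin filaments of actin. Calcium binding to the troponin complex on the thin filament starts contraction, and the ATP that is used is restored by creatine kinase and by glycolysis. Rodent skin carries a thin sheet of striated muscle, the panniculus carnosus, beneath the dermis and fat, so a piece of whole back skin can hold skeletal muscle RNA. Acta1 encodes the actin of skeletal muscle thin filaments, and Myh4 and Myl1 encode a heavy chain and a light chain of fast muscle myosin. Tnnt3, Tnni2 and Tnnc2 encode the fast muscle forms of the troponin subunits that bind tropomyosin, inhibit contraction and bind calcium. Ckm encodes muscle creatine kinase, Eno3 the muscle form of the glycolytic enzyme enolase, and Aldoa an aldolase that is abundant in muscle but is made in many other tissues.

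Because the 9 genes moved together, the bases before their start sites were read from RefSeq (assembly GRCr8), which held 11 promoters for 8 of the 9 genes. Those of 4 genes are shown, Acta1, Myh4 and Ckm because they held the most matches, and Tnnc2 because its level differed most between the groups. Each line gives the 120 bases before the start site, 5′ to 3′ on the strand of the gene. The regions are chr19:68784195-68784314 on the minus strand for Acta1, chr10:52422028-52422147 on the plus strand for Myh4, chr1:88189341-88189460 on the plus strand for Ckm and chr3:173935340-173935459 on the minus strand for Tnnc2. Capitals mark matches to TATAAA or TATANAA on the strand of the gene, or to CAGCTG (an E-box), CATTCC (an MCAT element), the MEF2 motif or the SRF CArG box on either strand. The first 2 motifs overlap each other.
Acta1: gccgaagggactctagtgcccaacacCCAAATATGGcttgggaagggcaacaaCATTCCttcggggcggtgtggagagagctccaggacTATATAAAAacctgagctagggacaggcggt
Myh4: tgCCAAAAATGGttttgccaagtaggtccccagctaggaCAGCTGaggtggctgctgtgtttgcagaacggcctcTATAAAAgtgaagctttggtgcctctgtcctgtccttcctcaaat
Ckm: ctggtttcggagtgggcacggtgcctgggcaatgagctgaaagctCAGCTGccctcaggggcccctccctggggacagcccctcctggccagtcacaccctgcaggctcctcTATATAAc
Tnnc2: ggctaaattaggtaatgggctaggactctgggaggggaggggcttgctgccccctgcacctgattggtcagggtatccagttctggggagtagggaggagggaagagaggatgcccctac

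Within 250 bases before the start, Acta1 and Myh4 held a CArG box, which is bound by the serum response factor, and 1.497% of the 33469 RefSeq promoters held one. Acta1, Myh4 and Ckm held CAGCTG, the form of E-box known for muscle regulators of the MyoD family, against 12.0% of all promoters. Acta1, Myh4 and Eno3 held CATTCC, against 12.1%. Myh4, 1 of the 3 promoters of Aldoa and 1 of the 2 of Myl1 held the MEF2 motif, known from many muscle genes, against 2.96%. TATAAA or TATANAA stood before Acta1, Myh4 and Ckm, and these occurred in 8.06% and 7.28% of all promoters. In Acta1 they lay at bases -31 to -23 from the start, and in Myh4 at -227 to -222 and -45 to -39. Ckm held only TATANAA, at -8 to -2. Tnnc2 and Tnni2 held none of the 6 motifs in this window. The motifs were chosen after these promoters were seen. The shares are per promoter, while Aldoa and Myl1 have several promoters each, so they do not test whether the motifs are more frequent in muscle genes. These matches describe letters in the reference sequence, and no binding was measured.

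The counts of the 9 genes made up 9.18%, 10.7% and 7.51% of vehicle libraries 1, 2 and 3. They made up 3.64%, 4.85% and 8.64% of afatinib libraries 1, 2 and 3. Afatinib replicates 1 and 2 thus lay below every vehicle library and replicate 3 lay among them. Group means were 9.12% ± 1.58 for vehicle and 5.71% ± 2.61 for afatinib (SD, n = 3 each), a difference of 3.41 percentage points. Without afatinib replicate 3 the afatinib mean was 4.25% (n = 2). In a bulk sample, fewer muscle cells in the piece of skin and less muscle RNA per cell cannot be told apart.

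Library totals ran from 15304166 to 18494281 counts, with each afatinib library below each vehicle library. The single gene counts ran from 15239 to 652633. Counting error was therefore between 0.124% and 0.810% of a count, below most differences between libraries, though for Acta1 and Myl1 a vehicle and an afatinib library differed by no more than about this much. Levels are given below as counts per 1000000 (CPM) after TMM scaling, which sets the libraries on a common scale. Transcript lengths were not used, so CPM values are compared between libraries for a gene, not between genes.

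Transcripts of the filament proteins were lowest in afatinib replicates 1 and 2. Acta1 (ENSRNOG00000017786) was at 36604, 33121 and 24519 CPM in vehicle libraries 1, 2 and 3, and at 10355, 13686 and 33069 CPM in afatinib libraries 1, 2 and 3. Afatinib replicate 3 lay above vehicle replicate 3 and differed from vehicle replicate 2 by about the counting error, so the groups overlapped. The means were 31415 ± 6220 and 19037 ± 12266 CPM (SD, n = 3 each), with a log2 fold change of -0.72 in edgeR. Without afatinib replicate 3 the afatinib mean was 12021 CPM (n = 2). Acta1 ranked between 2 and 4 by count among all features in each of the 6 libraries. Its promoter, shown above, held the CArG box, MCAT and TATA matches together.

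The myosin heavy chain gene Myh4 (ENSRNOG00000049695) was at 22076, 31550 and 17255 CPM in vehicle and at 9088, 12284 and 23601 CPM in afatinib libraries, in replicate order. Vehicle replicate 2 was the highest and afatinib replicate 3 came next, above vehicle replicates 1 and 3. The log2 fold change was -0.66. In the GRCr8 annotation Myh4 lies between Myh1 and Myh8, in a cluster of closely related myosin heavy chain genes. How reads that fit several of them were counted is not stated, so the Myh4 values are uncertain to that extent.

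The light chain gene Myl1 (ENSRNOG00000013262) was at 6623, 6754 and 5022 CPM in vehicle and at 2242, 2785 and 6781 CPM in afatinib libraries. Afatinib replicate 3 and vehicle replicate 2 differed by about the counting error. By share of library counts, without TMM scaling, vehicle replicate 1 was the highest, at 0.639% against 0.620% in afatinib replicate 3. Its log2 fold change, -0.64, was the one nearest 0.

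The 3 troponin genes differed in where afatinib replicate 3 lay. Tnnt3 (ENSRNOG00000020332), for the tropomyosin-binding subunit, was at 4643, 6627 and 5010 CPM in vehicle and at 1917, 2605 and 4919 CPM in afatinib libraries, so that replicate 3 lay within the vehicle range (log2 fold change -0.79). Tnni2 (ENSRNOG00000020276), for the inhibitory subunit, was at 3562, 4126 and 3066 CPM in vehicle and at 1070, 1429 and 3008 CPM in afatinib libraries. Its afatinib replicate 3 lay just under the lowest vehicle library (log2 fold change -0.97). In the GRCr8 annotation Tnni2 overlaps other genes, Syt8 and Ctsd among them, though the annotation used for the counts is not given. Without a stated strand setting, how reads in the shared stretches were assigned is not known.

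Tnnc2 (ENSRNOG00000015155), for the calcium-binding subunit, stood furthest from vehicle. It was at 3833, 5024 and 3879 CPM in vehicle and at 988, 1433 and 2729 CPM in afatinib libraries. The means were 4245 ± 674 and 1717 ± 905 CPM (SD, n = 3 each), with a log2 fold change of -1.31. Without afatinib replicate 3 the afatinib mean was 1211 CPM (n = 2). All 3 afatinib libraries lay below all 3 vehicle libraries, and afatinib replicate 3 was the nearest to them.

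**Figure D1:**
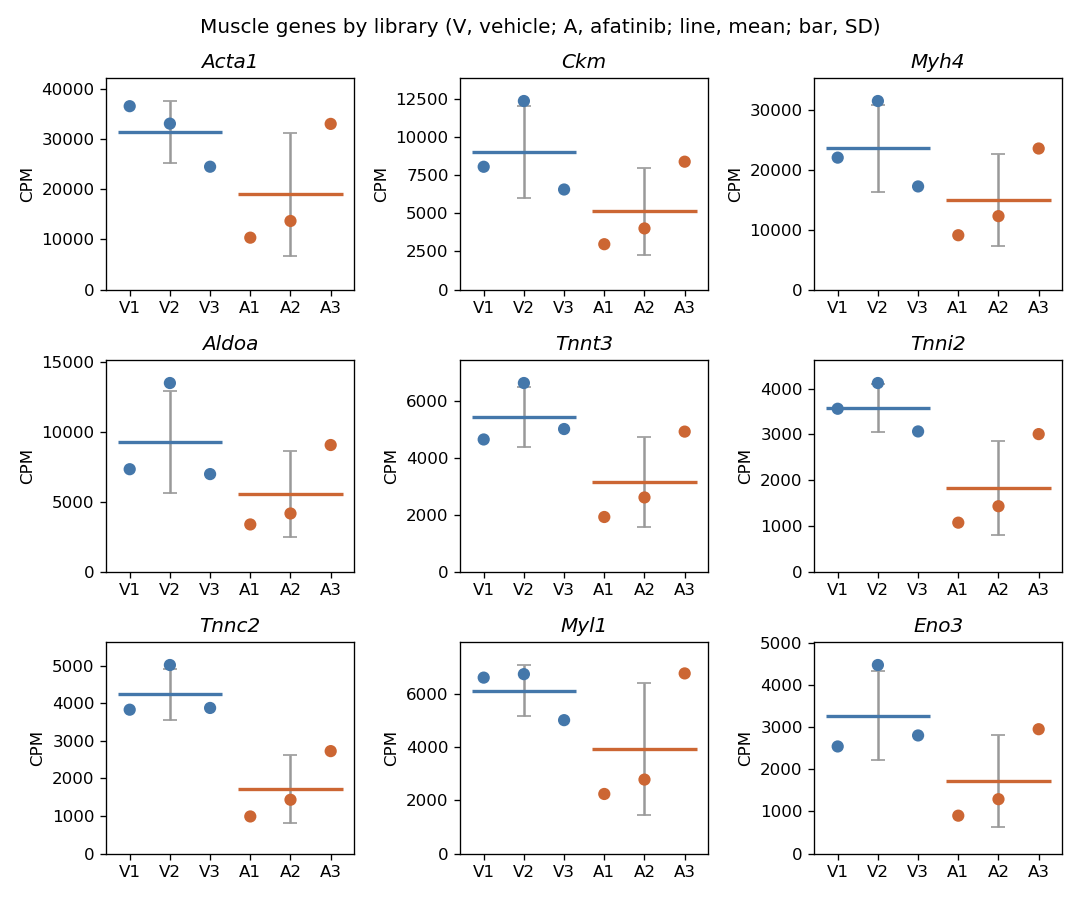
CPM of each of the 9 muscle genes (vertical axes, from 0) in the 3 vehicle (V1 to V3, blue) and 3 afatinib libraries (A1 to A3, orange), with group means as lines and SDs as grey bars. A1 and A2 are below every vehicle point in all 9 panels, and A3 is below every vehicle point for Tnni2 and Tnnc2.

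The 3 enzyme genes were all highest in vehicle replicate 2 and lowest in afatinib replicate 1. Ckm (ENSRNOG00000016837) was at 8037, 12341 and 6548 CPM in vehicle and at 2967, 4001 and 8369 CPM in afatinib libraries (log2 fold change -0.81). The groups thus overlapped through afatinib replicate 3. Aldoa (ENSRNOG00000052802) was at 7340, 13523 and 6990 CPM in vehicle and at 3377, 4164 and 9075 CPM in afatinib libraries (log2 fold change -0.75). It had the widest spread among vehicle libraries of the 9 genes, with its highest value 1.93 times its lowest. The GRCr8 annotation, which may not be the one used for the counts, places another protein-coding locus, LOC103691235, over part of Aldoa.

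Eno3 (ENSRNOG00000004078) was at 2544, 4479 and 2806 CPM in vehicle and at 899.6, 1291 and 2954 CPM in afatinib libraries (log2 fold change -0.93). Afatinib replicate 3 came next after vehicle replicate 2. By share of library counts it lay below vehicle replicate 3 (0.270% against 0.281%). Eno3 overlaps Spag7 in the GRCr8 annotation, with the same limits from the unstated strand setting and annotation of the counts.

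Relative to the vehicle mean of each gene, afatinib replicate 1 held between 23.3% and 38.5% (median 33.1% over the 9 genes) and replicate 2 between 33.8% and 52.0% (median 44.6%). Afatinib replicate 3 held between 64.3% and 110.6%, with a median of 93.2%. Replicate 1 was the lowest of the 6 libraries for all 9 genes, and replicate 2 exceeded it by 1.23 to 1.45 times. Vehicle replicate 2 was the highest library for 7 genes, and vehicle replicate 1 for Acta1. For Myl1 it was afatinib replicate 3 after TMM scaling and vehicle replicate 1 by share of library counts. The highest library exceeded the lowest by 1.31 to 1.93 times within vehicle and by 2.57 to 3.28 times within afatinib.

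**Figure D2:**
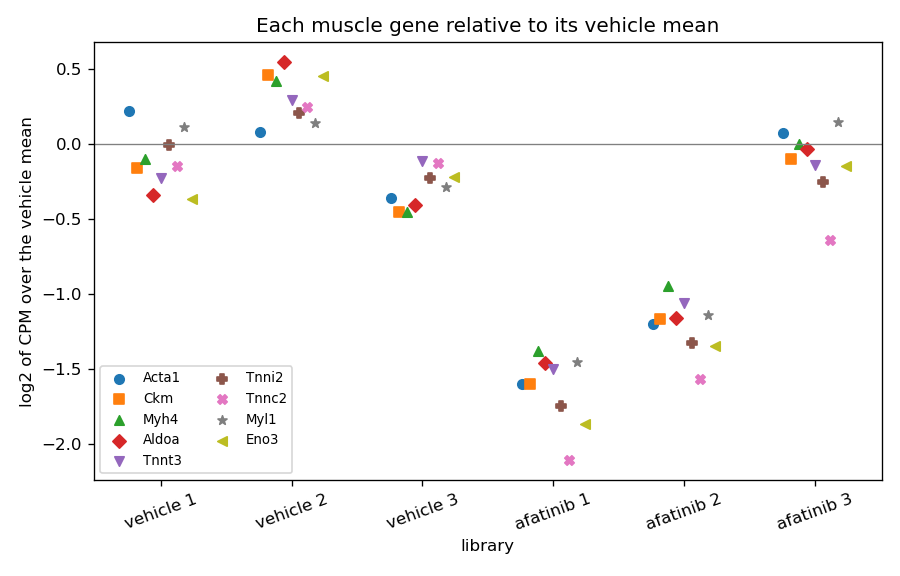
Log2 of the CPM of each muscle gene over its vehicle mean (vertical axis) in the 6 libraries (horizontal axis), 1 symbol per gene. The 9 genes lie between -2.10 and -1.38 in afatinib replicate 1, between -1.57 and -0.94 in replicate 2 and, apart from Tnnc2 at -0.64, between -0.25 and 0.14 in replicate 3.

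The comparison of afatinib with vehicle was fitted over all 15497 features that passed the filter on low counts, and all 9 muscle genes passed it. Their log2 fold changes ran from -1.31 to -0.64 with a median of -0.79, and the median of all tested features was -0.0031. The median was -0.75 for the 6 filament genes and -0.81 for the 3 enzyme genes. In edgeR's quasi-likelihood test, 0 of the 9 genes passed an adjusted p of 0.05, as did 0 (0%) of the 15497 features. At an unadjusted p under 0.05 there were 1 of 9 (Tnnc2, lower) and 3023 of 15497 features (19.5%) in either direction, of which 1425 were lower. Limma voom also called 0 of 9 and 0 features. DESeq2 called Tnnc2 alone among the 9, and 2.88% of its 15220 features as lower. Since this contrast chose the genes, these counts describe them and support nothing further.

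These counts moved most when afatinib replicate 3 was left out. Without it, edgeR called 6 of the 9 genes as lower (Acta1, Myl1, Tnnt3, Tnni2, Tnnc2 and Eno3), beside 4.98% of 16014 features, and DESeq2 called 9 of 9 beside 12.1% of 16338. The 2 afatinib libraries left in that fit are those whose low values picked the genes, so these calls restate the choice. The median log2 fold change was then -1.37, with a range from -1.82 for Tnnc2 to -1.15 for Myh4. Leaving out any other single library gave 0 of 9 in both tools, and the edgeR medians ran from -0.91 without vehicle replicate 3 to -0.53 without afatinib replicate 1. The sign was negative for each gene in each of these fits, which the choice of genes favours.

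**Figure D3:**
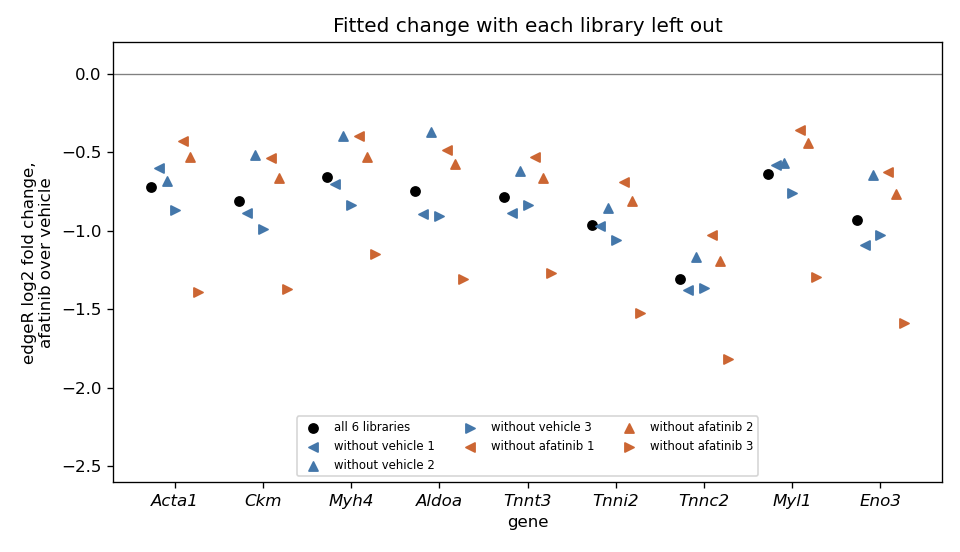
EdgeR log2 fold change of each muscle gene, afatinib over vehicle (vertical axis), with all 6 libraries (black) and with 1 vehicle (blue) or afatinib library (orange) left out. All points lie below 0, and those without afatinib replicate 3 are the lowest for every gene, from -1.82 to -1.15.

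The separation of the groups was set beside that of all features. Afatinib replicates 1 and 2 lay below every vehicle library for 9 of 9 genes, which the choice of genes fixes, and for 27.4% of all tested features. All 3 afatinib libraries lay below all 3 vehicle libraries for 2 of the 9, Tnni2 and Tnnc2, and for 13.2% of all features. In 6 of the 9 genes afatinib replicate 3 was within the vehicle range, and in 7 by share of library counts, where Myl1 joined them. The share of all features in this position was not counted, so it is not known whether this is usual. Among the 28 other features with a mean CPM at least as high as that of Eno3 (2496 CPM), afatinib replicates 1 and 2 lay below every vehicle library in 20, and the median log2 fold change was -0.27. The 28 features carry no names here, so further muscle genes may be among them. A log2 fold change below -0.5 was found in 9 of the 9 muscle genes, in 11 of these 28 and in 16.1% of all features, a count that the choice of genes also favours.

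The muscle genes were among the features with the most counts in every library. Among the 10 features with the highest counts in a library there were 4 muscle genes in vehicle replicates 1 and 2, 3 in vehicle replicate 3 and afatinib replicate 3, and 2 (Acta1 and Myh4) in afatinib replicates 1 and 2. Those muscle genes held 7.14%, 8.22% and 4.88% of the counts of vehicle libraries 1, 2 and 3, and 2.15%, 2.89% and 6.01% of afatinib libraries 1, 2 and 3. As the number of muscle genes among the 10 differs, these shares and those of the rest cover different sets of features in different libraries. The rest of these 10 features held 11.1%, 10.2% and 11.4% of vehicle libraries 1, 2 and 3, and 8.44%, 10.9% and 14.5% of afatinib libraries 1, 2 and 3. Their share was thus also lowest in afatinib replicate 1, but it was highest in afatinib replicate 3.

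The makeup of the muscle counts was then compared, which does not depend on how the libraries are scaled. Ckm, Aldoa and Eno3 together held 18.8%, 25.8% and 21.8% of the counts of the 9 genes in vehicle libraries 1, 2 and 3, and 22.0%, 21.6% and 21.6% in afatinib libraries 1, 2 and 3. The group means were 22.1% ± 3.52 and 21.7% ± 0.233 (SD, n = 3 each), so the enzyme share differed by less than the spread between vehicle libraries. All 3 afatinib libraries lay inside the vehicle range. Without afatinib replicate 3 the afatinib mean was 21.8% (n = 2), a difference of -0.30 points from vehicle. Without Aldoa, the share of Ckm and Eno3 in the remaining counts averaged 14.0% ± 2.08 for vehicle and 13.2% ± 0.149 for afatinib (SD, n = 3 each).

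Tnnc2 and Tnni2 were the genes whose share of the muscle counts did not overlap between the groups. Tnnc2 held 4.02%, 4.27% and 5.17% of the counts of the 9 genes in vehicle and 3.003%, 3.28% and 2.89% in afatinib libraries, in replicate order. The widest Wilson 95% interval among these, which covers counting error only, ran from 2.96% to 3.05% in afatinib replicate 1. The share of Tnnc2 was thus low in afatinib replicate 3 as well, a library in which the summed muscle level was near that of vehicle. Tnni2 held 3.74%, 3.51% and 4.08% in vehicle and 3.25%, 3.27% and 3.18% in afatinib libraries, a smaller gap. Relative to the summed muscle counts, 0.548% of all tested features lay lower in all 3 afatinib libraries than in every vehicle library, and 13.4% lay higher in all 3. The choice of the genes made that sum low in part of the afatinib libraries. This pushes the first share down and the second up, so neither shows how rare the gaps of Tnnc2 and Tnni2 are. The other 7 genes overlapped between the groups, among them Acta1 (28.2% to 38.4% in vehicle and 31.3% to 35.0% in afatinib libraries).

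**Figure D4:**
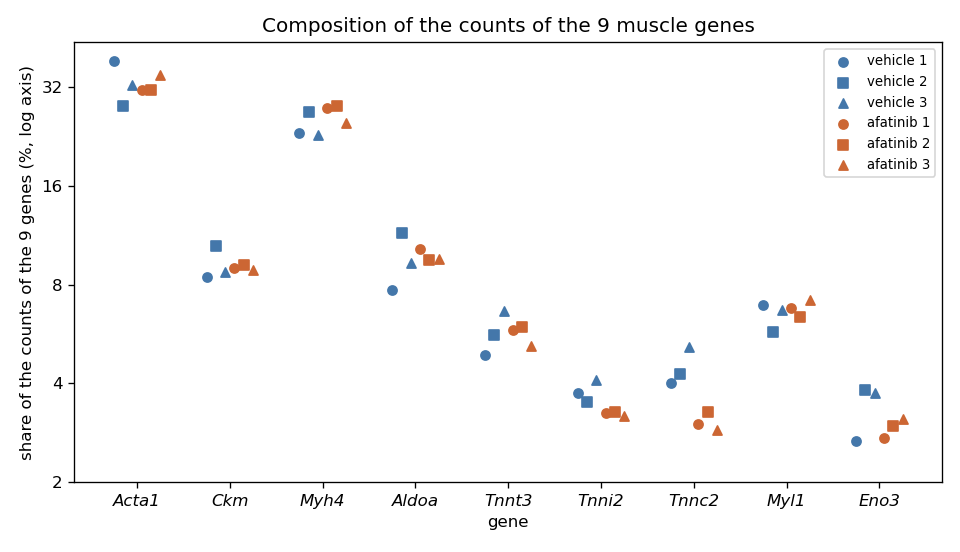
Share of the counts of the 9 muscle genes held by each gene (vertical axis, percent, log scale) in the vehicle (blue) and afatinib libraries (orange), with replicates 1, 2 and 3 as circles, squares and triangles. For Tnnc2 the afatinib points lie at 2.89% to 3.28%, under the vehicle points at 4.02% to 5.17%, while most other genes overlap.

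Ratios between single genes were compared next. The ratio of Tnni2 to Tnnc2 counts, 2 subunits of the same complex, was 0.929, 0.821 and 0.790 in vehicle and 1.08, 0.998 and 1.102 in afatinib libraries. These are the genes singled out above by their shares, and the assignment of reads to Tnni2 is uncertain. Of the 36 pairs of the 9 genes, only this ratio and the next are given, so the gap is a description without a test. The ratio of Acta1 to Myh4 counts was 1.66, 1.05 and 1.42 in vehicle and 1.14, 1.11 and 1.40 in afatinib libraries, so the afatinib values of this thin to thick filament ratio lay within the vehicle range. The share of muscle counts that would have to move between genes to turn one library into another was 1.31% between afatinib replicates 1 and 2. It was 11.7% between vehicle replicates 1 and 2, the pair furthest apart, and between 5.13% and 8.88% for pairs of 1 vehicle and 1 afatinib library.

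The 9 genes varied together over the 6 libraries. Pearson correlations of log2 CPM between 2 of them, over 6 libraries, ran from 0.90 (Acta1 and Aldoa) to 0.997 (Tnnt3 and Eno3), with a median of 0.96 over the 36 pairs. The genes were chosen for moving together, and all pairs share the same libraries and their scaling. The biological coefficient of variation that edgeR fitted was between 35.6% (Tnnt3) and 43.0% (Eno3) for the 9 genes, against a median of 25.2% over all tested features. The genes were chosen for low values in part of the afatinib group, which widens their spread, so this gap was favoured in advance.

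Other features were ranked by their likeness to the muscle genes, as Pearson's r over the 6 libraries between their log2 CPM and the mean profile of the 9 genes. Of 11657 other features with a mean of at least 5 CPM, 603 (5.17%) had r of at least 0.95 and 673 (5.77%) had r of -0.95 or lower. Profiles with the shape of that of the muscle genes, and their opposite, were therefore common. The value of r does not measure the size of a change, which can be smaller or larger than in the muscle genes. The features most alike were ENSRNOG00000003583 (r = 0.9992) and ENSRNOG00000011912 (r = 0.9984), which the files do not pair with names. ENSRNOG00000011912 was at 995, 1349.97 and 866 CPM in vehicle and at 339.9, 439 and 1052 CPM in afatinib libraries. Those with the most opposite profile were ENSRNOG00000027125 (r = -0.9991) and ENSRNOG00000019282 (r = -0.9976). ENSRNOG00000027125 was at 11.4, 8.20 and 12.2 CPM in vehicle and at 32.1, 23.2 and 11.0 CPM in afatinib libraries.

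**Figure D5:**
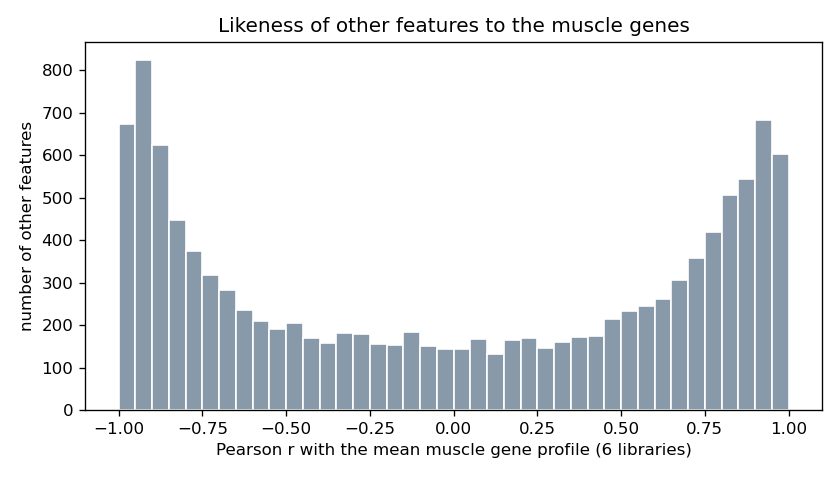
Number of other features (vertical axis) by their Pearson r over 6 libraries with the mean log2 profile of the 9 muscle genes (horizontal axis, bins of 0.05). The counts pile up at both ends, with 603 features at 0.95 or above and 673 at -0.95 or below.

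Apart from the 9 genes, 91 features had both r of at least 0.98 and a slope of at least 0.7 against the muscle profile, limits that were set after the values were seen. Together they held 4.17%, 4.84% and 3.83% of vehicle libraries 1, 2 and 3, and 1.68%, 2.33% and 3.86% of afatinib libraries 1, 2 and 3. The limits keep features that follow the muscle profile, so the lower share in afatinib libraries 1 and 2 was fixed by them. The identity of these features is not known here, and their link to muscle was not tested.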

How the data were processed

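RNA sequencing of rat back skin gave 3 vehicle and 3 afatinib libraries, made from 1 µg of total RNA each, per the labels' protocols. The authors deposited raw counts of reads per gene for each library, per the file headers and the whole-number values. HISAT2 2.0.5, featureCounts 1.5.0-p3 and DESeq2 1.16.1 are named in the submitters' processing notes. Their settings, the genome build and the annotation: not given in the sources used here. The column headings number the afatinib libraries 3, 4 and 5; titles number them 1, 2 and 3, as here.

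Features were filtered with filterByExpr, scaled by TMM and fitted with edgeR 4.0.16 (R 4.3.3, robust quasi-likelihood, group as the only term, Benjamini-Hochberg adjustment over all tested features). The procedure was tested on simulated counts with independent noise, in which no library stood apart from its group, so that setting differs from these data. P-values reflect only how far these samples differ, which may be technical. Log2 CPM used a prior count of 2. The alternatives were other scalings and filters, DESeq2 1.42.0, limma 3.58.1 with voom, a replicate block and each library left out. Leaving the 9 genes out of the scaling and DESeq2 with each library left out were added after seeing the data. Motifs were chosen after the promoters were seen. The genes and gene lists were chosen with earlier results of these data known. The rule named the 9 genes and, as no other identifier could be paired with a symbol (0 of 47357 RefSeq genes carried an Ensembl identifier), the 2 identifiers most like them and the 2 least like them.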

Additional observations from a re-analysis of the deposited data

How the results depend on the processing

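All 9 muscle genes kept a negative log2 fold change in the 189 values from the 21 alternatives, which ran from -1.82 to -0.35. The genes were chosen on this contrast and the alternatives refit the same libraries or a part of them, so this sign was favoured in advance. Which libraries were included, and the test, changed the counts of calls. DESeq2 called 1032 features and 1 muscle gene, against 0 and 0 in edgeR. Leaving out 1 library moved the edgeR count between 0 and 1627 features and between 0 and 6 muscle genes, the upper ends without afatinib replicate 3; in DESeq2 the features called were 399, 490 and 744 without vehicle replicates 1, 2 and 3 and 336, 270 and 4085 without afatinib replicates 1, 2 and 3, with 0 to 9 muscle genes. The log2 ratio of the summed muscle level, afatinib over vehicle, was -0.75, from -1.33 to -0.47 with 1 library left out. The enzyme share differed by -0.38 points, from -2.04 without vehicle replicate 1 to 1.46 without vehicle replicate 2, so its direction rests on single libraries. Scaling by total counts moved the median of all features to 0.12; relative to it the muscle median was -0.82, against -0.78 after TMM. Features lower at an unadjusted p under 0.05 were then 1068 of 2919, against 1425 of 3023. With the replicate block edgeR called 0 features and 0 muscle genes, and the muscle median was -0.91. Deviations of same-numbered libraries correlated by 0.20, -0.21 and -0.39, and some libraries were closer to another number, so the numbers were not taken as pairs. With 3 libraries a group, the spread between libraries and not counting error limits these values.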
